A study of Mus musculus with 39 samples.

Results

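Collagen chain genes encode the alpha chains that assemble in threes into collagen, the main protein of the extracellular matrix. The genes described here were all those whose symbol has the form Col, number, a, number and that reached at least 10 counts in at least 3 of the 39 libraries. Of 44 such symbols among 45706 gene identifiers, 42 met the count rule, and Col10a1 and Col26a1 did not. Over the whole series 18274 genes met the same count rule. All libraries were bulk RNA-seq of male C57BL/6 mice of 10 to 16 weeks on chow, in which loss of the basic helix-loop-helix factor E47 was compared with its presence under glucocorticoid treatment. E47 is 1 of the splice products of Tcf3.

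Mice lacking E47 in every cell (E47-/-, E47KO) and wild-type littermates (E47+/+, WT) received the synthetic glucocorticoid dexamethasone (Dex) at 10 µg/ml in drinking water for 3 weeks, and gave liver (2 WT, 3 E47KO), epididymal white adipose tissue (WAT; 2 WT, 2 E47KO) and quadriceps skeletal muscle (2 WT, 3 E47KO). Livers of other mice came after 3 weeks of corticosterone (Cort), the natural glucocorticoid of mice, at 100 µg/ml in drinking water (4 WT, 4 E47KO), or without treatment (5 WT, 6 E47KO). In the remaining experiment, livers were taken 1 h after an injection of Dex at 1 mg/kg from 3 Albcre/+;E47fl/fl mice (E47LKO), whose Albumin-driven Cre deletes floxed E47 in hepatocytes, and from 3 floxed controls without Cre, of which replicate 1 was E47fl/+ and the other 2 Alb+/+;E47fl/fl. The mice treated for 3 weeks had undergone a glucose tolerance test, whereas the 1 h mice had free access to food. In bulk tissue, fewer cells of a type and less RNA per cell cannot be told apart.

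Each collagen chain holds stretches in which glycine recurs with 2 residues in between, which allows 3 chains to wind into a triple helix. Fibrillar collagens (types I, III and V among them) form the tensile fibers of connective tissue, type IV collagens form the sheet of basement membranes, type VI collagens form beaded filaments, and the FACIT collagens sit on fibril surfaces. The multiplexins, Col15a1 and Col18a1, are basement membrane proteoglycan chains, and the C-terminal piece of the Col18a1 chain is known as endostatin. In normal liver, hepatic stellate cells are the best known source of fibrillar collagen, and hepatocytes are known to make Col18a1.

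The repeat is visible in the coding sequence, since all 4 glycine codons begin with GG. In the longest coding transcripts of GENCODE vM21, the longest uninterrupted run of glycine codons spaced in this way spanned 216 to 344 triplets in the 11 fibrillar chains, 39 to 66 in the 6 type IV chains and 30 in both multiplexins. Stretches of 24 codons from the longest run of Col1a1 (codons 168 to 191), Col4a1 (codons 43 to 66) and Col18a1 (codons 953 to 976) show the feature that unites the genes, with the glycine codons in capitals.
Col1a1: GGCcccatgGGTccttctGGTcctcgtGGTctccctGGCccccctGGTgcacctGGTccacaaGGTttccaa
Col4a1: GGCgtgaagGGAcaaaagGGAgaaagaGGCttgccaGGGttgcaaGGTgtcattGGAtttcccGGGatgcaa
Col18a1: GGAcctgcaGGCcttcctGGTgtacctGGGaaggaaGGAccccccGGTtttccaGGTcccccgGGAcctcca

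Several members are neighbours in the genome. Col4a1 and Col4a2, which encode the chains of the common type IV collagen molecule, start on opposite strands of chromosome 8 and overlap by 22 bases head to head. Their promoter windows, 250 bases before to 50 bases after the start in RefSeq (GRCm38.p6), therefore share 78 bases, and each holds a CCAAT box (in capitals, CCAAT or its complement ATTGG) and no E-box, the CANNTG motif that E47 binds.
Col4a1, chr8:11312777-11313076, minus strand: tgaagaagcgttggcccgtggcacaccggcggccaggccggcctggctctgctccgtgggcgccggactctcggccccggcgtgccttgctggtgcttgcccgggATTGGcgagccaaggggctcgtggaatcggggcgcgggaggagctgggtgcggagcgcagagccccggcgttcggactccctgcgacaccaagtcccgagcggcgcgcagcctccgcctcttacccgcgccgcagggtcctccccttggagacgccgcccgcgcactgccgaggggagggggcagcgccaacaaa
Col4a2, chr8:11312555-11312854, plus strand: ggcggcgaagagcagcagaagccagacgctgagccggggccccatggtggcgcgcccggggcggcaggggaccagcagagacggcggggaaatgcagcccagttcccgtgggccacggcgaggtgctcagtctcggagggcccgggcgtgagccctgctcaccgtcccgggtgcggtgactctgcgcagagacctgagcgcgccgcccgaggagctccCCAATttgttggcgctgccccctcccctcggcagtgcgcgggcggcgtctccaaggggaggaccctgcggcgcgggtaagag
Col18a1 has 2 annotated windows on the minus strand of chromosome 10, and the counts, made per gene, do not separate transcripts from these 2 starts. They are shown because Col18a1 was the leading chain of every liver, and only the upstream window holds a CCAAT box, again in capitals.
Col18a1 upstream start, chr10:77166481-77166780: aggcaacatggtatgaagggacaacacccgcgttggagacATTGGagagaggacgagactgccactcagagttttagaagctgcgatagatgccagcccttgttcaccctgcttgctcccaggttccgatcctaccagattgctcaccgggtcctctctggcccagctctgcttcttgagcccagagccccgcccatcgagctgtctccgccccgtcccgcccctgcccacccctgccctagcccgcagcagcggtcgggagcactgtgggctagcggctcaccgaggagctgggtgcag
Col18a1 downstream start, chr10:77113656-77113955: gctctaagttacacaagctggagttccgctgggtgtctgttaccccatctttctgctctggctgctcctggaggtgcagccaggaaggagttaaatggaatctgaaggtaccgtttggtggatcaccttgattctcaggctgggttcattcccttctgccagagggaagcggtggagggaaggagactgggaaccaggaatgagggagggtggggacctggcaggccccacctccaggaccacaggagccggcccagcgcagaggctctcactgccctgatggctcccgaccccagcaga
RefSeq windows were found for 34 of the 42 members (37 windows). An E-box (CANNTG, the same on both strands) was in 20 of the 37 windows (54.1%), against 72.3% of all 32851 windows of the same length. A CCAAT box on either strand was in 35.1% of the member windows and 37.4% of all, and a TATAAA on either strand in 10.8% and 13.6%. The full palindromic glucocorticoid response element was in 0 member windows and in 0.00913% of all. These matches describe letters in a window and are not binding sites.

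Total counts ran from 15.5 to 54.6 megacounts per library. Levels are counts per 1000000 counts of the library, with the library total scaled by its TMM factor (CPM). Tcf3 itself was at 6.28 to 20.7 CPM over the 39 libraries. Its genotype difference lay between -0.15 and 0.23 on the log2 scale in the 6 experiments (edgeR quasi-likelihood test, adjusted p from 0.822 to 0.9998). Because E47 is only 1 splice form of Tcf3, counts per gene do not test the deletion. Defining markers fitted the tissue labels. The summed level of 6 hepatocyte markers was 79298 to 155768 CPM in the 30 livers, that of 6 adipocyte markers was 24878 to 28270 CPM in WAT, and that of 7 skeletal muscle markers was 127182 to 198747 CPM in muscle. The hepatocyte gene Alb was at 14.4 to 53.0 CPM in WAT. Some libraries stood apart. In muscle, E47KO replicate 2 held 601 CPM of summed collagen chain transcripts, against 343 to 394 CPM in the other 4. Among the 1 h livers, the E47fl/+ control (replicate 1) had the lowest Col1a1, at 7.19 CPM against 22.3 to 31.0 CPM in the others. Among the Cort livers, WT replicate 1 had the highest Col4a1 and Col5a3.

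**Figure D1:**
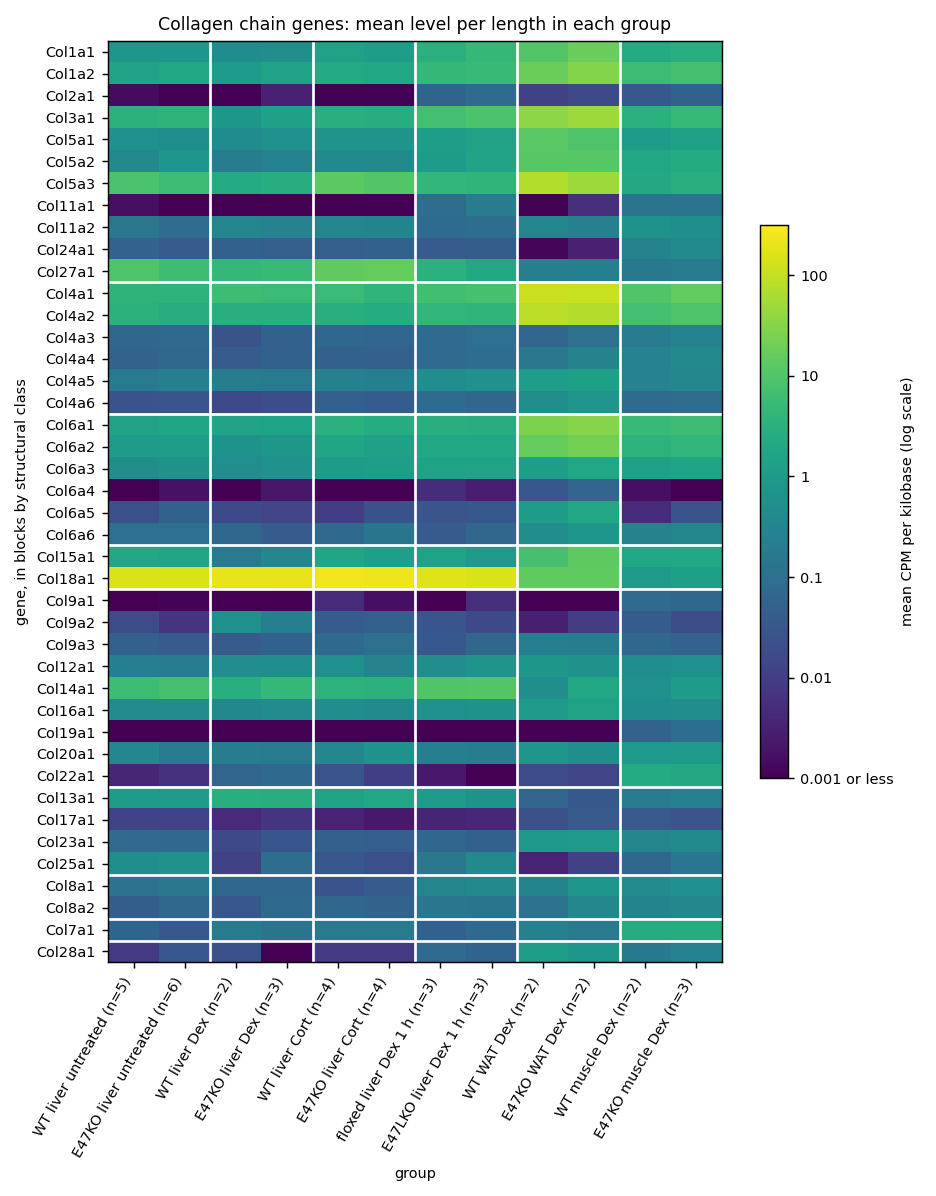
Mean level of each of the 42 collagen chain genes (rows, grouped by class) in the 12 groups (columns), as CPM per kb of transcript on a log color scale with values at or below 0.001 drawn at 0.001. Col18a1 was the most abundant chain in every liver group, at 156 CPM per kb in untreated and 204 CPM per kb in 3-week Dex livers, and Col4a1 in WAT and muscle, at 111.4 and 13.0 CPM per kb.

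The 3 tissues differed first in which chains were abundant. Levels were compared between genes per transcript length, as CPM per kb of the longest coding transcript. In the 5 livers after 3 weeks of Dex, Col18a1 had a mean of 204 CPM per kb (179 to 236) and made up 86.3% of the summed per-length level of all 42 members. Next came Col4a1 at 5.79, the fibrillar chain Col27a1 at 5.01 and the FACIT chain Col14a1 at 3.94 CPM per kb. The range of Col18a1 did not overlap that of the next gene, whereas Col4a1, Col27a1 and Col14a1 each overlapped their neighbour in the order. In WAT the order was Col4a1 at 111.4 CPM per kb (101 to 117), Col4a2 at 79.9, Col5a3 at 61.6, Col3a1 at 42.0 and Col6a1 at 28.7, with Col18a1 at rank 8 and 14.3 CPM per kb. Only the first place stood clear of its neighbour among these. Muscle had Col4a1 at 13.0 CPM per kb, Col4a2 at 8.62, Col1a2 at 6.87, Col6a1 at 5.58 and Col3a1 at 4.22, and all these neighbours overlapped.

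Summed over all members and without the length correction, collagen chains were at 2546 to 2817 CPM in WAT, 1194 to 1502 CPM in Dex-treated liver and 343 to 601 CPM in muscle. As a share of the library counts without TMM scaling, this sum was 0.410% to 0.472% in WAT, 0.115% to 0.137% in Dex-treated liver and 0.0353% to 0.0619% in muscle. Col18a1 alone was 82.0% to 87.7% of this sum in the Dex-treated livers, 72.2% to 78.3% in the untreated livers, 73.0% to 83.5% after Cort and 65.2% to 80.4% at 1 h. In WAT it was 2.59% to 3.45% and in muscle 1.22% to 1.78%. Without Col18a1, the sum in Dex-treated liver was 165 to 254 CPM. More members exceeded a mean of 1 CPM in muscle (30) and WAT (29) than in Dex-treated liver (22).

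Chains that assemble into the same molecule were measured at ratios that differed between tissues. Col1a1 and Col1a2 form type I collagen with 2 chains of the first for 1 of the second, yet per length Col1a1 stood below Col1a2 in all tissues, at a median ratio of 0.577 in WAT (0.557 to 0.591), 0.380 in muscle (0.355 to 0.483) and 0.417 in Dex-treated liver (0.215 to 0.518). Col4a1 exceeded Col4a2 in all 14 of these libraries, with median ratios of 1.38 in WAT, 1.52 in muscle and 2.01 in liver. The ranges of this ratio were 1.34 to 1.499 in WAT and 1.82 to 2.34 in liver, and they did not overlap. Col6a3, the largest type VI chain, was scarce relative to Col6a1 in WAT, at 0.0406 to 0.0644 per length, whereas the ratio was 0.243 to 0.289 in muscle and 0.232 to 0.462 in liver. Col5a3, a minor chain of type V collagen, exceeded Col5a1 per length everywhere, with a median ratio of 2.06 in muscle, 4.49 in Dex-treated liver, 5.36 in WAT, 11.8 in untreated and 16.4 in Cort-treated liver. These ratios use 1 transcript length per gene and were given without a test.

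The tissue comparisons were fitted over all 14 libraries of mice on 3 weeks of Dex, and the 3 comparisons share libraries. By the paper's methods, RNA of muscle and fat was isolated with Qiazol before the RNeasy kit, and RNA of liver with the kit alone. Tissue and RNA isolation thus cannot be told apart in the comparisons with liver. In muscle against liver, 35 of the 42 members passed an adjusted p of 0.05 in edgeR (83.3%), close to the 76.4% of all 18113 genes tested. Their direction was uneven, with 30 higher in muscle (71.4%, against 40.4% of all genes) and 5 lower (11.9%, against 36% of all genes). In WAT against liver, 35 members passed (75.4% of all genes did), 28 of them higher in WAT (41.6% of all genes) and 7 lower (33.8%). In WAT against muscle, 34 passed (77.3% of all genes), 21 higher in WAT (43.5%) and 13 lower (33.8%). The members that did not pass in muscle against liver were Col5a3, Col6a4, Col6a5, Col9a3, Col12a1, Col16a1 and Col25a1. The median difference over the 42 members was 2.30 log2 units in muscle against liver, 2.29 in WAT against liver and 0.62 in WAT against muscle, whereas the medians of all genes were 0.11, 0.19 and 0.25. With genes undetected in a tissue set to the bound that 3 counts per library allow, the first 2 medians became 1.70 and 1.88.

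Col18a1 set liver apart. It was at 1113 and 1128 CPM in WT and at 1002, 1157 and 1318 CPM in E47KO livers after Dex. In WAT it was at 91.4 and 69.1 CPM in WT and 86.3 and 72.2 CPM in E47KO. In muscle it was at 4.39 and 6.07 CPM in WT and 4.601, 9.31 and 7.01 CPM in E47KO. The 3 tissues did not overlap, and liver exceeded muscle by 175-fold (log2 difference muscle minus liver -7.45 ± 0.26 SE, adjusted p = 7.82e-11) and WAT by 13.99-fold (-3.81 ± 0.23, adjusted p = 1.22e-08). Col15a1, the other multiplexin, ran the opposite way, at 0.898 to 2.65 CPM in liver, 7.10 to 15.6 CPM in muscle and 23.5 to 106 CPM in WAT. Its level was 41.2-fold higher in WAT than in liver (5.36 ± 0.48, adjusted p = 5.59e-07).

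Of the 11 fibrillar chains, 9 were higher in muscle than in liver and 1 was lower, and 6 were higher in WAT than in liver and 2 lower. The type I chain Col1a1 was at 3.51 and 1.99 CPM in WT and 1.53, 4.96 and 2.59 CPM in E47KO livers. It was at 56.3 and 70.2 CPM in WT and 116 and 90.5 CPM in E47KO WAT, all above all livers, for a 28.3-fold difference (4.82 ± 0.44, adjusted p = 6.35e-07). In muscle it was at 13.7 and 15.1 CPM in WT and 12.0, 31.4 and 7.84 CPM in E47KO. Col3a1, which forms fine reticular fibers, was 39.8-fold higher in WAT than in liver (5.31 ± 0.50, or 5.97 without WT liver replicate 1) and 9.81-fold higher in WAT than in muscle (3.29 ± 0.44).

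Col5a3 separated WAT from both other tissues. It was at 501 and 405 CPM in WT WAT and 334 and 267 CPM in E47KO WAT, against 13.5 to 18.7 CPM in the livers and 12.1 to 20.4 CPM in muscle. WAT exceeded liver by 24.5-fold (4.61 ± 0.15, adjusted p = 1.08e-10) and muscle by 23.3-fold (4.54 ± 0.15, adjusted p = 7.89e-11). Muscle and liver overlapped, and their difference of 0.07 ± 0.13 did not pass (adjusted p = 0.629). Col27a1 was the fibrillar chain highest in liver, at 23.5 to 61.7 CPM, against 1.18 to 2.38 CPM in WAT and 1.05 to 1.97 CPM in muscle. It was 25.8-fold lower in muscle than in liver (-4.69 ± 0.33, adjusted p = 4.18e-08) and 21.1-fold lower in WAT (-4.40 ± 0.34). The cartilage-type chain Col11a1 had 0 counts in all 5 Dex-treated livers and 0.384 to 2.08 CPM in muscle, where it was at least 6.13-fold higher. Col5a2, a type V chain, was at 68.1 to 86.8 CPM in WAT, 11.6 to 22.8 CPM in muscle and 1.32 to 2.22 CPM in liver, again without overlap. Col24a1 was at 1.64 to 4.55 CPM in muscle and 0.257 to 0.472 CPM in liver, and no WAT library had more than 3 counts (WAT against muscle, adjusted p = 3.15e-08). The cartilage chain Col2a1 stayed at a mean of 0.225 CPM in muscle and below that elsewhere.

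All 6 type IV chains were higher in both muscle and WAT than in liver. Col4a1 was at 740 and 773 CPM in WT WAT and 667 and 768 CPM in E47KO WAT, at 68.7 and 64.2 CPM in WT and 86.9, 104 and 104 CPM in E47KO muscle, and at 29.0 to 43.4 CPM in liver. These ranges did not overlap, and WAT exceeded liver by 19.4-fold (4.28 ± 0.15, adjusted p = 1.51e-10) and muscle by 8.61-fold (3.11 ± 0.14). Its partner Col4a2 followed the same order, at 434 to 565 CPM in WAT, 45.2 to 66.8 CPM in muscle and 12.8 to 21.6 CPM in liver. Among the chains of the second network type, Col4a3 and Col4a4, Col4a3 went with muscle instead. Col4a4 was higher than in liver in both muscle (log2 difference 2.94) and WAT (2.23). Col4a3 was at a mean of 2.01 CPM in muscle, 0.720 CPM in WAT and 0.349 CPM in liver (WAT against muscle -1.52 ± 0.35, adjusted p = 0.00147). Col4a3 and Col4a4 start 71 bases apart on opposite strands, and in the untreated and 1 h livers, whose reads keep their strand, the count without strand exceeded the strand-specific count 1.67-fold for Col4a3 and 1.06-fold for Col4a4. Part of the Col4a3 count of these livers thus came from reads on the opposite strand, whose source was not tested.

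The beaded filament chains leaned to WAT, with all 6 higher there than in liver and 5 of 6 higher than in muscle. Col6a1 was at 107 and 102 CPM in WT and 166 and 95.2 CPM in E47KO WAT, against 17.4 to 37.4 CPM in muscle and 5.51 to 7.51 CPM in liver. Col6a5 had the widest gap, at 4.88 and 15.5 CPM in WT and 15.7 and 20.3 CPM in E47KO WAT, with 0 to 0.337 CPM in liver and 0.0432 to 0.415 CPM in muscle. WAT exceeded muscle by 118-fold (6.89 ± 0.56, adjusted p = 1.96e-07). Col6a4 had a mean of 0.340 CPM in WAT and at most 3 counts in any liver or muscle library. The exception was Col6a3, at 10.2 to 26.4 CPM in WAT and 10.4 to 26.6 CPM in muscle, where the difference of -0.05 ± 0.29 did not pass (adjusted p = 0.884).

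The FACIT chains were split between tissues. Col14a1, which binds the surface of collagen fibrils, had its highest mean in liver, at 26.2 and 12.1 CPM in WT and 28.0, 35.7 and 25.2 CPM in E47KO livers, against 2.37 to 11.4 CPM in muscle (-2.16 ± 0.44, adjusted p = 5.96e-04). In WAT it was at 2.26 and 4.09 CPM in WT and 6.66 and 18.1 CPM in E47KO, which overlapped liver (WAT minus liver -1.90, edgeR adjusted p = 0.00214). Col22a1, known from the junction of muscle and tendon, was at 17.4 and 25.7 CPM in WT and 19.1, 17.7 and 18.8 CPM in E47KO muscle, and at most 1.09 CPM in liver and 0.217 CPM in WAT. Muscle exceeded WAT by 144-fold (WAT minus muscle -7.17 ± 0.40, adjusted p = 6.70e-09), and without E47KO WAT replicate 3 the difference was -8.12. Col9a1 and Col19a1 had 0 counts in every liver and WAT library of these mice, and muscle was at least 1.81-fold and 2.14-fold above liver and at least 6.14-fold and 7.25-fold above WAT. Col7a1, which forms the anchoring fibrils of skin, was at 16.8 to 29.1 CPM in muscle, 1.68 to 2.84 CPM in WAT and 0.915 to 2.25 CPM in liver. Col28a1, a chain known from peripheral nerve, was at 1.94 to 5.69 CPM in WAT and 0.531 to 1.57 CPM in muscle, with at most 3 counts in any of these livers (adjusted p = 2.92e-06 and 8.86e-05). Among the transmembrane chains, Col13a1 was highest in liver, at 3.34 to 12.8 CPM, and Col23a1 in WAT, at 3.67 to 6.38 CPM.

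**Figure D2:**
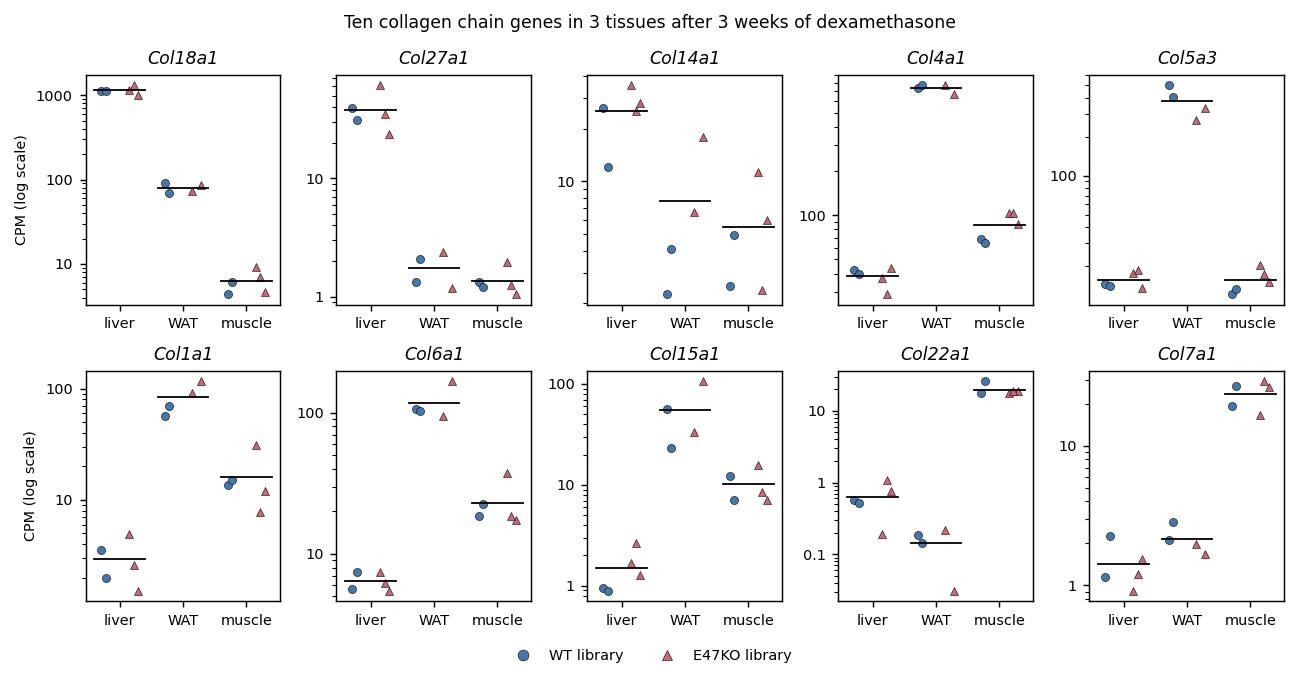
Levels of 10 collagen chain genes in each library of liver, WAT and muscle after 3 weeks of Dex (CPM, log axis; each point is a library, lines are means over WT and E47KO). By mean level, Col18a1, Col27a1 and Col14a1 were highest in liver, Col4a1, Col5a3, Col1a1, Col6a1 and Col15a1 in WAT, and Col22a1 and Col7a1 in muscle.

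Genes that fold, modify and cross-link collagen were examined beside the chains. Over all genes, 41.6% were higher and 33.8% lower in WAT than in liver, and 40.4% were higher and 36% lower in muscle than in liver. Of 29 collagen processing genes tested, 18 were higher in WAT than in liver and 5 lower, at a median of 1.86 log2 units (0.19 over all genes), and 17 were higher in muscle than in liver and 6 lower, at a median of 1.14 (0.11 over all genes). Serpinh1, the collagen chaperone HSP47, was at 124 to 216 CPM in WAT, 18.2 to 32.8 CPM in muscle and 5.31 to 8.38 CPM in liver. Lox, which cross-links fibrillar chains, was at 165 to 325 CPM in WAT, 22.8 to 31.3 CPM in muscle and 0.403 to 0.962 CPM in liver. Of 15 laminin and other basement membrane genes, 12 were higher in WAT than in liver, among them Lama4 (6.43 ± 0.32) and Nid1 (4.44 ± 0.20). Of 12 genes of collagen breakdown and its inhibition, 10 were higher and 1 lower, the latter the collagenase Mmp14 (-1.10 ± 0.14). The 10 include Timp1 to Timp4, which encode inhibitors of metalloproteinases. Of 8 collagen receptor genes, 4 were higher and 2 lower, and of 17 TGF-beta pathway genes, 11 were higher and 4 lower.

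The study's livers also allow the 3-week glucocorticoid livers to be set against untreated ones. Cort and Dex were compared with the same 11 untreated livers in a fit over 24 livers, and the 2 comparisons therefore share their controls. Treatment went with experiment, library preparation and the glucose tolerance test, so these cannot be told apart. Of the 42 members, 35 passed the low-count filter. After Cort 18 of the 35 passed an adjusted p of 0.05 in edgeR (51.4%), at the background of 51.9% of 15976 genes, with 14 higher (40%, against 25.8% of all genes) and 4 lower (11.4%, against 26%). In Dex-treated livers 19 of 35 passed (54.3%, against 50.6% of all genes), with 8 higher (24.1% of all genes) and 11 lower (26.5%). The share of members called was thus near that of all genes in both comparisons. In WT libraries alone, 11 of 33 members passed for Cort (26% of all genes) and 11 of 33 for Dex (25.2% of all genes). Median differences were 0.26 after Cort and -0.31 after Dex, against -0.01 and -0.04 over all genes.

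A few members stood out after Cort as groups without overlap. Col25a1, a transmembrane chain known from neurons, was at 0.650 to 4.13 CPM in untreated livers (median 1.34) and at 0.0193 to 0.157 CPM after Cort (median 0.0492). This was a 22.8-fold fall (-4.51 ± 0.45, adjusted p = 7.94e-08), resting on at most 6 counts in any Cort library. Col18a1 was at 759.7 to 1044 CPM in untreated livers (median 856) and 1134 to 1474 CPM after Cort (median 1311), a 1.49-fold rise (0.57 ± 0.08, adjusted p = 4.25e-06). Col7a1 was at 0.0306 to 0.780 CPM untreated and 1.02 to 3.31 CPM after Cort, a 4.27-fold rise (2.10 ± 0.30, adjusted p = 6.38e-06).

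Other members shifted with overlap of single libraries or more. Fibrillar Col27a1 went from a median of 59.9 CPM (18.3 to 101) to 101 CPM (81.8 to 182) after Cort (0.94 ± 0.21, adjusted p = 9.53e-04). Fibrillar Col5a3 went from a median of 38.2 CPM (20.7 to 79.1) to 64.9 CPM (59.1 to 112), a rise of 0.68 ± 0.18 (adjusted p = 0.00392). Col6a1 and Col6a3 of type VI rose by 0.81 ± 0.12 and 0.93 ± 0.14. Col14a1 fell by 0.97 ± 0.15 on the log2 scale, from a mean of 45.3 to 23.1 CPM. Among scarce members, the short-chain collagen Col8a1 fell by 2.07 ± 0.38, from a mean of 0.723 to 0.171 CPM. Col11a2 rose by 1.40 ± 0.25, from 0.647 to 1.70 CPM. Col22a1, Col9a2, Col9a3 and Col6a5 also passed, at means below 0.35 CPM in both groups, and without E47KO Cort replicate 3 the calls of the last 3 were lost (adjusted p = 0.448, 0.0643 and 0.0673). The call of Col6a5 was lost in 8 of the 24 omissions of a library, and that of Col9a2 also without WT Cort replicate 3 (adjusted p = 0.0948). Of the 9 fibrillar chains tested, 4 rose in edgeR at the adjusted threshold, where 25.8% of all genes were higher. The call of Col1a1, 1 of the 4, was lost without E47KO Cort replicate 1 (adjusted p = 0.0883). Of the 6 type IV chains, 2 were higher at an unadjusted p under 0.05, and these did not pass the adjusted threshold in edgeR. The fibrillar Col3a1 (-0.34 ± 0.26) and Col1a2 (0.19 ± 0.16) and the type IV Col4a1 (0.30 ± 0.14) and Col4a2 (-0.20 ± 0.14) did not pass.

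Dex-treated livers moved in part the other way. Col5a3 was at 13.5 to 18.7 CPM, below the whole untreated range of 20.7 to 79.1 CPM, a 2.85-fold fall (-1.51 ± 0.24, adjusted p = 2.33e-05). Col15a1 was at 0.898 to 2.65 CPM against 4.22 to 18.0 CPM, a 7.43-fold fall (-2.89 ± 0.41, adjusted p = 5.40e-06). Col3a1 was at 1.86 to 11.9 CPM against 12.6 to 26.2 CPM, a 3.36-fold fall (-1.75 ± 0.35, adjusted p = 2.90e-04; -2.40 without WT Dex replicate 1). The groups did not overlap for these 3 genes. Col9a2, a FACIT chain of cartilage, was at 0.434 to 2.05 CPM in Dex-treated livers, where every untreated liver had 3 counts or fewer (at most 0.0892 CPM; adjusted p = 1.97e-06). Col22a1 was at 0.193 to 1.09 CPM against 0 to 0.150 CPM untreated (adjusted p = 7.90e-06), and transmembrane Col23a1 fell from a mean of 0.463 to 0.136 CPM (adjusted p = 0.0146, and 0.0854 without WT Dex replicate 1). Col7a1 was higher (1.80 ± 0.35), as was Col18a1 (0.38 ± 0.09), and Col25a1 was lower. Col25a1 had 0 to 8 counts per Dex-treated library, and its difference was -4.13 ± 0.66, or -5.72 without WT Dex replicate 2. Col14a1 fell by 0.90 ± 0.18 and Col27a1 fell by 0.65 ± 0.26. Of the 9 fibrillar chains tested, 1 was higher and 5 were lower, where 24.1% and 26.5% of all genes were. The call of Col1a2, 1 of the 5, was lost in 3 of the 24 omissions of a library, with the highest adjusted p (0.191) without WT Dex replicate 2.

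**Figure D3:**
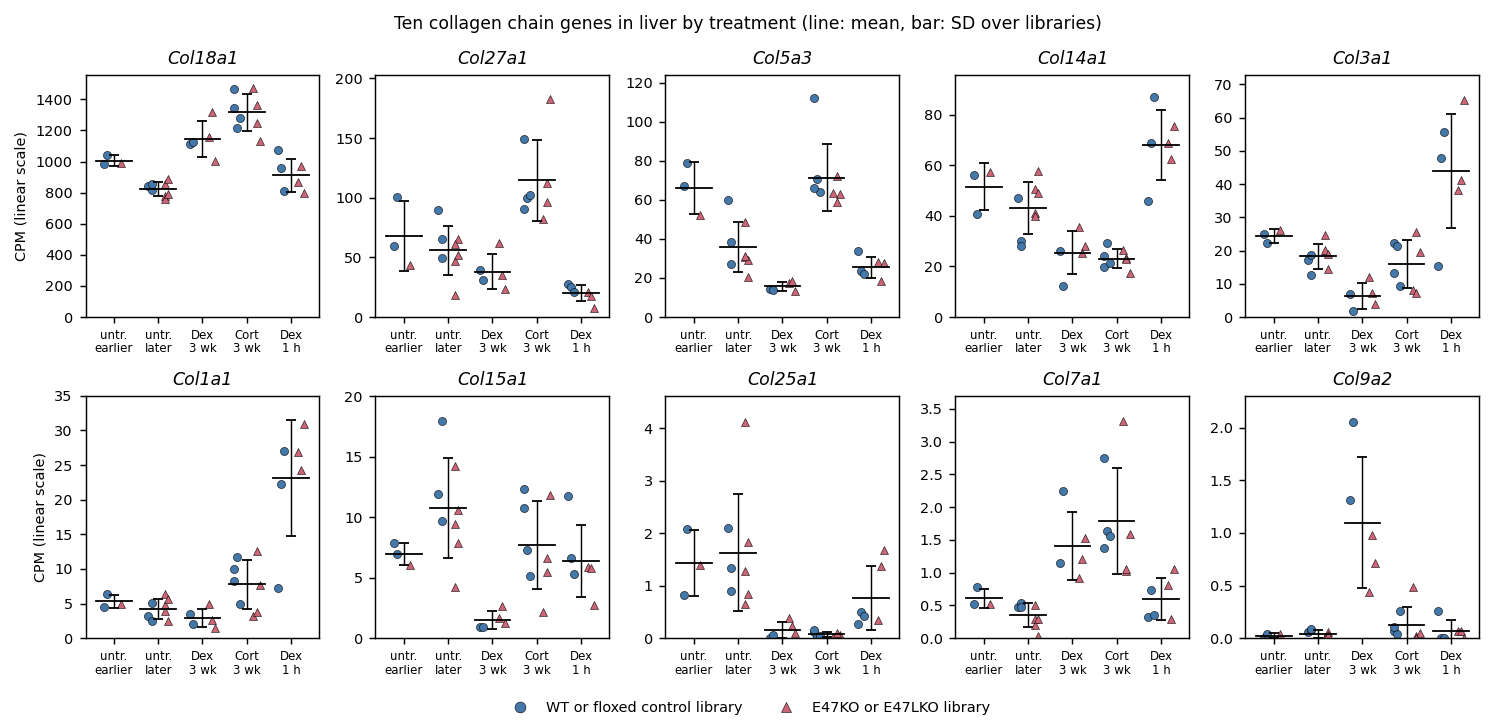
Levels of 10 collagen chain genes in every liver (CPM, linear axis; points are libraries, lines the mean and SD), with untreated livers split into the earlier and later library series. Col25a1 was near 0 after 3 weeks of Dex or Cort, Col5a3 was at most 18.7 CPM after Dex and at least 59.1 CPM after Cort, and Col9a2 was at 0.434 to 2.05 CPM in the 3-week Dex livers, a range that 1 Cort liver (0.485 CPM) also reached.

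Other measures moved with treatment as well. By a gap in their library numbers, the untreated livers were split into an earlier library series (3 livers) and a later one (8 livers). No label names such a series. Col5a3 was at 52.3 to 79.1 CPM in the earlier and 20.7 to 60.1 CPM in the later series. Against the earlier series alone, the call of Col18a1 after Dex was lost (0.19, adjusted p = 0.228), while that after Cort was kept. Of 8 hepatic stellate cell markers, 3 were lower after Cort in edgeR, and the list's summed level was 117 to 205 CPM against 140 to 294 CPM untreated. After Dex 2 of the 8 were higher and 1 lower, without a common direction. The summed level of 7 skeletal muscle markers was 1.03 to 326 CPM in untreated, 0.832 to 179 CPM in Cort-treated and 6.79 to 20.7 CPM in Dex-treated livers. Their part in the results was not tested. Of 27 biosynthesis and cross-linking genes tested, 12 were higher and 5 lower after Cort (25.8% and 26% of all genes), and 8 were higher and 4 lower after Dex (24.1% and 26.5% of all genes).

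Loss of E47 was compared with its presence within each of the 6 experiments. In edgeR, 0 members passed an adjusted p of 0.05 in any of them, against 0.00752% of all genes in Dex-treated liver, 0.0274% in Cort-treated liver, 0.0288% in untreated liver, 0.0134% in Dex-treated muscle, and 0% in 1 h liver and in WAT. At an unadjusted p under 0.05 the members numbered 2 of 25 tested in Dex-treated liver (3.08% of all genes), 0 of 30 in Cort-treated liver (9.84%), 4 of 30 in untreated liver (3.63%), 1 of 25 in 1 h liver (3.7%), 7 of 35 in WAT (4.29%) and 3 of 38 in muscle (3.94%). DESeq2 called 2 members in WAT and 1 in muscle at an adjusted p of 0.05, and 0 in the 4 liver experiments. The share of all genes that DESeq2 called is not given here. Its counts can therefore not be set against the edgeR shares above.

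In WAT, the fibrillar type I chains were higher in both E47KO samples than in both WT samples. Col1a2 was at 87.1 and 107 CPM in WT and 183 and 146 CPM in E47KO (0.75 ± 0.17, adjusted p = 0.977 in edgeR and 0.0390 in DESeq2). Col1a1, with the levels given above, differed by 0.70 ± 0.17. Col14a1 was at 2.26 and 4.09 CPM in WT and 18.1 and 6.66 CPM in E47KO (1.96 ± 0.55, adjusted p = 0.977 in edgeR and 0.0335 in DESeq2). Over the 8 alternatives fitted, the adjusted p of both Col1a2 and Col14a1 ran up to 1.00, with lowest values of 0.0334 and 0.00859. Col16a1, a FACIT chain, was at 4.65 and 5.40 CPM in WT and 7.93 and 7.51 CPM in E47KO (0.61 ± 0.14). The type V chain Col5a3 lay the other way, at 501 and 405 CPM in WT and 334 and 267 CPM in E47KO (-0.60 ± 0.19). None of these groups overlapped. In groups of 2 or 3 samples, lack of overlap is common without any genotype difference, and its share over all genes is not given here. In WAT, Col13a1 and Col7a1 did not overlap either, at an unadjusted edgeR p of 0.211 and 0.150. Omitting E47KO replicate 3 leaves 1 sample in that group, whose spread is then taken from the other group. The share of all genes called in that fit is not given here, so its calls among the members cannot be weighed. Of 35 members tested in the full fit, 22 were higher in E47KO, with a median of 0.32 against 0.00 over all genes. The summed level of 8 fibroblast markers was 616 and 744 CPM in WT and 965 and 844 CPM in E47KO WAT, with all 8 higher in E47KO, and that of 4 mesothelial markers was 74.5 and 150 CPM against 226 and 118 CPM. Their part in the collagen values was not tested.

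In muscle, the type IV chains Col4a1 and Col4a2 and the fibrillar chain Col5a3 were at higher levels in all 3 E47KO samples than in both WT samples. Col4a1, at 68.7 and 64.2 CPM in WT and 86.9, 104 and 104 CPM in E47KO, differed by 0.58 ± 0.12 (adjusted p = 0.588 in edgeR and 0.00673 in DESeq2, from 0.00673 to 0.999 over the 10 alternatives fitted). Col4a2 was at 48.7 and 45.2 CPM in WT and 53.1, 64.2 and 66.8 CPM in E47KO (0.40 ± 0.12). Col5a3 was at 12.1 and 13.4 CPM in WT and 15.04, 20.4 and 17.2 CPM in E47KO (0.48 ± 0.14), the direction opposite to that in WAT, though the difference between the tissues was not tested. Of the 38 members tested, 33 were higher in E47KO (86.8%, against 53.3% of all genes), with a median of 0.32 against 0.02. The direction of some members rested on E47KO replicate 2, without which the differences were -0.51 for Col1a1, -0.13 for Col3a1 and -0.17 for Col6a1, while Col4a1 stayed at 0.54. The 6 adipocyte markers also moved, with sums of 159 and 230 CPM in WT and 425, 468 and 566 CPM in E47KO muscle, and all 6 were higher in E47KO at an unadjusted p under 0.05. The hepatocyte gene Alb was at 1.103 and 132 CPM in WT and 0.572, 0.787 and 7.23 CPM in E47KO muscle (-4.52 ± 1.69, unadjusted p = 0.0341), and without the WT replicate 2 that held the 132 CPM, Col4a1 differed by 0.50. The part of the adipocyte markers was not tested.

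**Figure D4:**
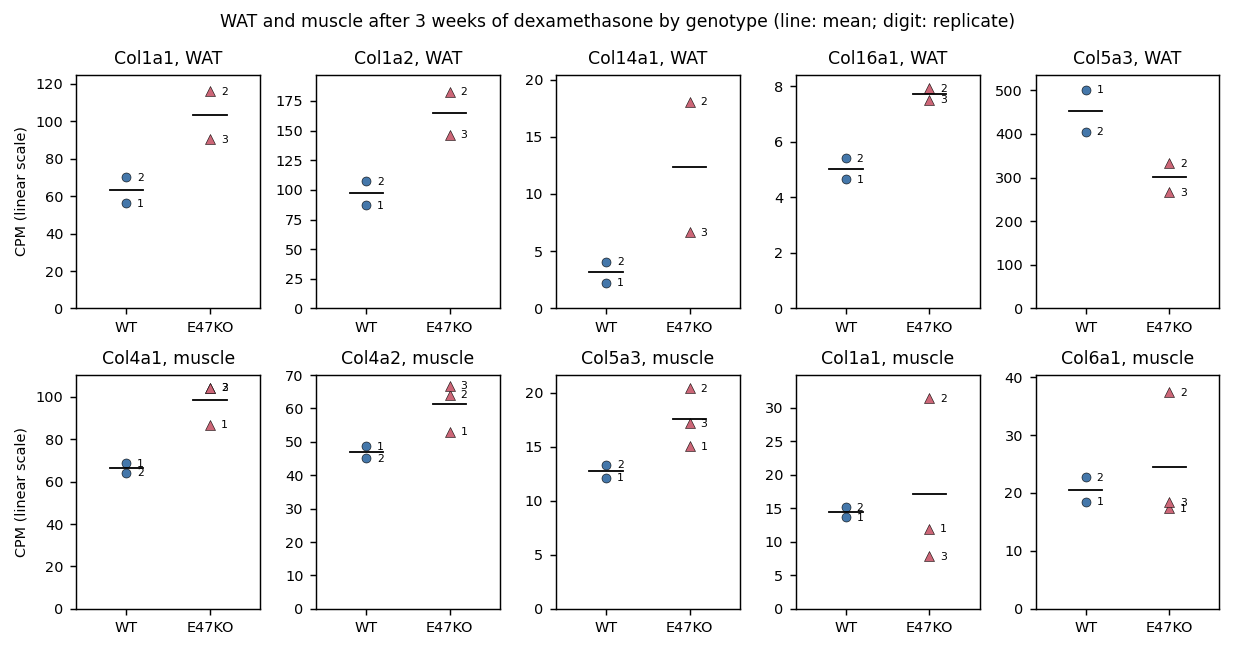
Levels of 5 collagen chain genes in each of WAT and muscle, both after Dex for 3 weeks (CPM; points are libraries labelled by replicate number, lines group means). In WAT Col1a1, Col1a2, Col14a1 and Col16a1 were higher and Col5a3 lower in both E47KO samples, and in muscle Col4a1, Col4a2 and Col5a3 were higher in all 3 E47KO samples. In groups this small, lack of overlap is common without any genotype difference.

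In the livers, few members differed between genotypes even at the unadjusted threshold. After 3 weeks of Dex, Col9a2 was at 1.31 and 2.05 CPM in WT and 0.715, 0.434 and 0.978 CPM in E47KO (-1.24 ± 0.44, unadjusted p = 0.0274), without overlap. Col15a1 was at 0.943 and 0.898 CPM in WT and 1.28, 1.69 and 2.65 CPM in E47KO (1.01 ± 0.41, unadjusted p = 0.0460). Col18a1, the leading liver chain, overlapped between genotypes in all 4 liver experiments. Among the untreated livers, Col6a3 was at 3.98 to 6.00 CPM in WT and 5.32 to 8.08 CPM in E47KO (0.37 ± 0.14). In the same livers the summed level of 8 fibroblast markers was 95.5 to 158 CPM in WT and 155 to 199.9 CPM in E47KO, and 4 of the 5 that were tested were higher in E47KO at an unadjusted p under 0.05, among them Lum (0.72 ± 0.25) and Pdgfra (0.48 ± 0.17). Their part in the collagen values was not tested. Col5a2 differed by 1.01 ± 0.42 and Col6a5 by 1.18 ± 0.51, and E47KO replicate 2 had 13.9 CPM of Col5a2 where the other 10 livers had 2.12 to 4.56 CPM. Col27a1 was at 49.1 to 101 CPM in WT and 18.3 to 65.4 CPM in E47KO (-0.60 ± 0.28). With E47 deleted in hepatocytes alone, 1 h after Dex, Col27a1 was at 20.7, 17.9 and 7.995 CPM in E47LKO. Controls were at 27.7, 25.5 and 21.2 CPM (-0.67 ± 0.29), and these groups did not overlap. The Col27a1 difference had the other sign after 3 weeks of Dex (0.19 ± 0.38) and of Cort (0.10 ± 0.25), with overlap in both. In Cort-treated livers 7 of the 30 members tested were higher in E47KO (23.3%, against 50.6% of all genes) and 23 lower, with a median of -0.12 against 0.00 over all genes, but none reached an unadjusted p of 0.05 in edgeR or an adjusted p of 0.05 in DESeq2.

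Whether E47 loss acted differently under Cort than without treatment was tested as an interaction. In edgeR, 0 of 35 members passed the adjusted threshold (0.00626% of all genes), and 0 passed in DESeq2. At an unadjusted p under 0.05 there were 2 members (6.42% of all genes), Col20a1 (1.70 ± 0.64) and Col6a1 (-0.56 ± 0.25). Biosynthesis, breakdown, receptor, basement membrane partner and TGF-beta pathway genes had 0 adjusted calls for genotype in edgeR in any experiment, with 0 to 4 genes per list and experiment at an unadjusted p under 0.05. Over all genes, that share ran from 3.08% in Dex-treated liver to 9.84% in Cort-treated liver. The number of genes tested per list differed between experiments, and these counts were not compared with that share.

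**Figure D5:**
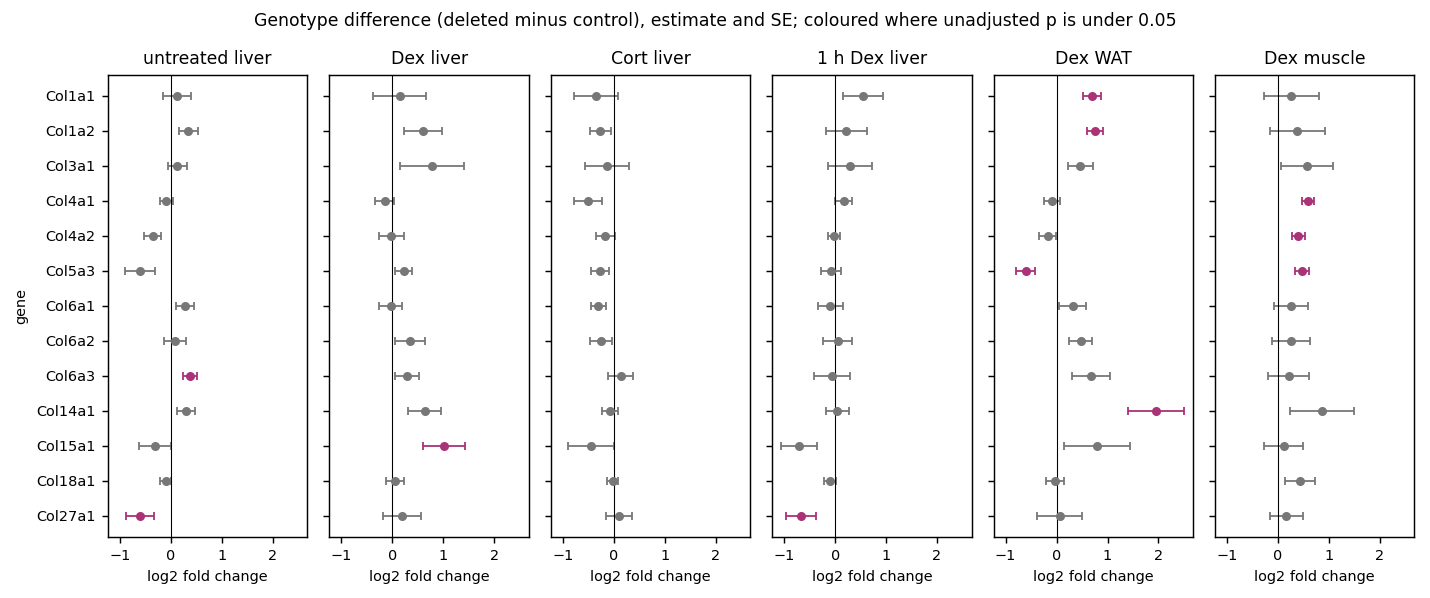
Genotype difference of 13 collagen chain genes (log2, E47-deficient minus control, with SE) in the 6 experiments, colored where the unadjusted edgeR p was under 0.05. No value passed an adjusted p of 0.05, and Col5a3 was at -0.60 in WAT and 0.48 in muscle.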

How the data were processed

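PolyA RNA-seq libraries of 39 samples were aligned by the authors with STAR 2.4.2a to mm10 and counted per gene; the submitters' processing notes also name HTSeq and DESeq2. The values used here are raw read counts per gene as deposited, from the column that ignores strand, in all 39 libraries, because only part of the libraries is labelled stranded. The strand column held 96.9% to 97.7% of the stranded counts in the untreated and 1 h livers, but 50.1% in the Cort livers, which are labelled stranded too, where the strand-column alternative therefore used about that share of the counts. Reads assigned to no gene were 20.8% to 36.8% of a library and were left out. The deposited normalized values are a signal, gene counts that the authors divided by size factors, and served only to identify the count column, to which they were proportional in all 39 libraries. The authors' own fold changes and p-values in those tables were not used.

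Comparisons were fitted with edgeR 4.0.16 in R 4.3.3 (TMM, filterByExpr, glmQLFit and glmQLFTest, two-sided, Benjamini-Hochberg over all genes tested, threshold 0.05). Each genotype comparison used its own experiment, the tissue comparisons the 14 libraries from mice on 3 weeks of Dex (3 mice gave both liver and muscle), and the treatment comparisons 24 livers. Values after ± are SE. Levels are CPM with TMM factors over the 39 libraries (1.58 to 1.73 in WAT, 0.86 to 1.06 in the others), and a level of 0 was bounded at 3 counts per library. The SE include the spread between replicates as fitted by edgeR, whereas floors cover counting error only. Replicates are separate mice by their labels. Alternatives were DESeq2 1.42.0, RLE scaling, no filter, the strand column, subsets of libraries, a replicate or mouse block (limma 3.58.1), a cohort covariate and leaving out each library. The fit was tested on simulated counts. Sequences came from GENCODE vM21 (GRCm38) and RefSeq.

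Named genes were 10 fixed chains, the 8 called members with the largest fold per tissue or treatment comparison, for genotype up to 5 members with the smallest unadjusted p, and the leader of each class per tissue; other members were named after their values were seen. The members and gene lists were chosen with earlier results of these data known. Within an experiment, same-numbered replicates of different genotypes were not the same animals. They deviated together only in part (correlations from -0.48 to 0.75), so they were not treated as pairs. The main tissue fit did not model that 3 mice gave both liver and muscle.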

Additional observations from a re-analysis of the deposited data

Results flagged for a closer look

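In groups of 4 to 10 livers or WAT samples, a library was marked where its gap to the nearest other was large against the range of its group. Of 101 such group tests over the collagen chain genes, 7 were marked, and chance marks about 1 in 20, or 5.05. In WT Cort-treated livers, replicate 1 accounted for 3 of them. Its Col4a1 was 62.2 CPM where the nearest other liver was at 31.5 CPM, its Col5a3 was 112 CPM against 70.8 CPM, and its Col13a1 was 2.42 CPM, the lowest, against 5.10 CPM. In untreated E47KO livers, replicate 2 had 13.9 CPM of Col5a2 against 4.56 CPM and 4.13 CPM of Col25a1 against 1.84 CPM in the nearest other liver. Col9a2 in Cort-treated E47KO replicate 3 was at 0.485 CPM, from 22 counts, against 0.0521 CPM. Col7a1 in untreated WT replicate 2 was at 0.780 CPM, from 21 counts, against 0.534 CPM.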

How the results depend on the processing

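Small groups limit the genotype comparisons, and treatment was confounded with experiment. For genotype, DESeq2 called 2 members in WAT and 1 in muscle where edgeR called 0, and leaving out each library gave 0 to 6 members in WAT, 6 without E47KO replicate 3, and 0 in the other experiments. At an unadjusted p under 0.05 the same omissions gave 0 to 14 members in WAT and 2 to 7 in muscle. With the replicate number as a block, 0 members were called in Dex-treated liver, Cort-treated liver, untreated liver, 1 h liver and muscle, as without it. No paired analysis was possible in WAT because the genotypes share 1 number. Leaving out each library gave 34 to 36 members in muscle against liver, 32 to 35 in WAT against liver, 33 to 35 in WAT against muscle, 14 to 20 in Cort and 16 to 21 in Dex against untreated liver. With WT libraries only, 11 members were called for Cort and 11 for Dex. With untreated livers of the earlier library series only, chosen after seeing the data, 11 were called for Cort, and Col9a3 reversed to -0.089 (adjusted p = 0.868). The call of Col6a2 after Cort was lost without E47KO Cort replicate 1 (adjusted p = 0.0659) and that after Dex without WT Dex replicate 2 (adjusted p = 0.101). Without TMM factors the 10 WAT levels recomputed moved beyond the spread between replicates, all to higher values. The cause of these shifts was not tested. RLE scaling, no filter and the strand column left every count of called members within 1.5 times its value.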

Other observations

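The livers taken 1 h after Dex injection enter no treatment comparison, and their collagen chain levels are given as values. Col18a1 led here too, at 163 CPM per kb, followed by Col14a1 at 10.5, Col3a1 at 7.90, Col4a1 at 7.37 and Col1a2 at 5.08 CPM per kb. Col1a1 was at 7.19, 22.3 and 27.0 CPM in floxed controls and 26.9, 24.3 and 31.0 CPM in E47LKO, whereas the other 24 livers lay between 1.53 and 12.6 CPM. Col3a1 was at 15.4, 47.7 and 55.8 CPM in controls and 38.2, 41.3 and 65.3 CPM in E47LKO. Col11a1, which was at 0.0371 CPM or less in the other 24 livers, was at 0.131, 0.741 and 1.24 CPM in controls and 1.77, 2.02 and 0.875 CPM in E47LKO. In the same 6 livers the summed level of 5 smooth muscle and myofibroblast markers was 13.6 to 39.9 CPM, lowest in the E47fl/+ control. Their RNA was extracted with another kit than in the 3-week experiments, although the paper's methods name a single kit for liver. The part of the markers and of the kit in the collagen values was not tested.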
